A study of Mus musculus with 6 samples.

Results

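The microRNA (miRNA) miR-511 is made from a hairpin inside Mrc1, the gene of the mannose receptor CD206. Its 2 mature arms, mmu-miR-511-5p and mmu-miR-511-3p, are described here. They were taken by exact name from the tables of reads per mature miRNA, and are 2 of the 911 mature references listed in any of the 6 libraries. Each library came from bone-marrow-derived macrophages of male mice aged 6 to 12 weeks. The cells were grown in medium with 10% serum and turned into macrophages over 6 days with the growth factor M-CSF, added every 2 days at 25 ng/mL. One group of 3 libraries came from ApoE-knockout mice (EKO) and the other 3 from wild-type mice (WT), and the series design calls the replicates biological. M-CSF was given to both groups alike, so neither group is an untreated control. Apolipoprotein E carries lipids in lipoproteins and is made by macrophages among other cells. The stated purpose of the series was to compare the miRNAs of the 2 genotypes. The labels give no further detail of the knockout allele, and small RNA counts hold no Apoe mRNA that could check it.

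A miRNA hairpin is cut into a duplex, and either strand can be loaded into an Argonaute protein, where the seed (bases 2 to 8) pairs with target mRNAs. A miRNA inside an intron can be released from the transcript of its host gene. Mrc1 marks many tissue-resident and alternatively activated macrophages. Mrc1 mRNA was not measured by these libraries.

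The hairpin and the 3p arm are shown because part of the results concerns how the reads fell between the 2 arms of this precursor. In the hairpin, capitals mark the 3p arm (bases 49 to 70 of 79). In miR-511-3p they mark the seed, and in miR-1198-5p the bases 2 to 7 that it shares with miR-511-3p.
Mir511 hairpin: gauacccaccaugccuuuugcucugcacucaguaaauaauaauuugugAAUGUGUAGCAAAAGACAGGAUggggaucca
miR-511-3p: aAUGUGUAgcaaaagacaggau
miR-1198-5p: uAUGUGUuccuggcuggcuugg
These are RefSeq sequences, 5′ to 3′, of the GRCm38.p6 assembly. The hairpin lies at chr2:14261003-14261081 on the plus strand and the 3p arm at chr2:14261051-14261072. In the GENCODE M21 annotation of GRCm38 the hairpin is intronic. It falls in intron 5 of the 30-exon Mrc1 transcript, on the same strand as Mrc1 and 108 bases before the next exon, and overlaps no other annotated gene. No other mature sequence in the RefSeq table shared the full seed of miR-511-3p. The RefSeq sequences held no mature entry for miR-511-5p, so its sequence is not shown and its seed was not searched.

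Both arms were rare in these cultures. CPM below is the reads of a miRNA per 1e+06 reads on all mature miRNAs of its library, and a library held 34651511 to 41331604 such reads. By its mean over the 6 libraries, 3.23 CPM, miR-511-5p ranked 357 among the 911 references, and miR-511-3p ranked 599 at 0.503 CPM. Total and multimap-adjusted read counts were equal for both arms in every library, so no read of theirs was shared with another reference. No library listed reads on the hairpin outside its mature arms.

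The level of the 5p arm was lower in each of the 3 EKO libraries than in any WT library, without passing the test over all miRNAs. There were 56, 3 and 14 reads of miR-511-5p in EKO replicates 1, 2 and 3, which is 1.62, 0.0759 and 0.378 CPM. In WT replicates 1, 2 and 3 there were 174, 278 and 247 reads, which is 4.53, 6.73 and 6.04 CPM. The groups did not overlap, and the lowest WT library held 2.80 times the level of the highest EKO library, EKO replicate 1. The exact (Clopper-Pearson) 95% intervals for counting error reached from 1.22 to 2.10 CPM in EKO replicate 1 and from 3.88 to 5.25 CPM in WT replicate 1. Those intervals treat reads as independent, and without molecular barcodes copies made by PCR are counted as reads.

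Mean levels of miR-511-5p were 0.690 ± 0.816 CPM for EKO and 5.76 ± 1.13 CPM for WT (SD over 3 libraries each), which puts the EKO mean at 12.0% of the WT mean. The fitted log2 fold change was -2.98 ± 1.19 (SE). The adjusted p was 0.189 (edgeR quasi-likelihood test, Benjamini-Hochberg over 575 miRNAs). No miRNA passed that test in either direction (0% called), against 92 of the 564 with an adjusted p in DESeq2 (16.3%) and 32 of 575 in limma-voom (5.57%). At an unadjusted p under 0.05, 75 miRNAs (13%) had lower values in EKO, miR-511-5p among them. The 3 EKO libraries lay below the 3 WT libraries without overlap for 105 miRNAs (18.3%), so the separation of the groups at miR-511-5p is one that many miRNAs had. Among the 325 tested miRNAs averaging under 10 CPM, as miR-511-5p did, 45 had it (13.8%). In bulk libraries, fewer cells that make an RNA and less of it per cell cannot be told apart.

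**Figure D1:**
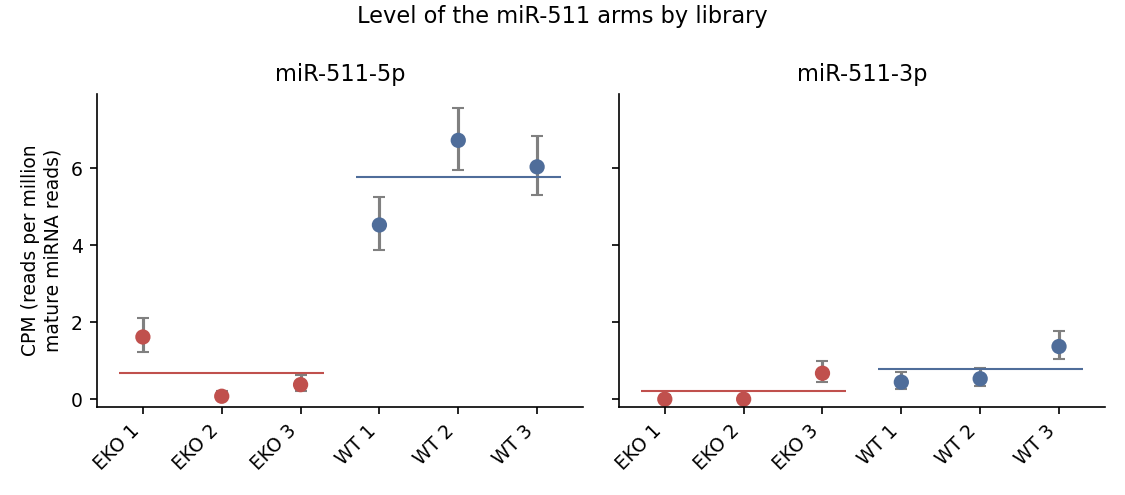
Level of each miR-511 arm in CPM (y axis, linear) in each library (x axis). Points are libraries, red EKO and blue WT, bars are exact 95% intervals for counting error, and horizontal lines are group means. For miR-511-5p the EKO points lie between 0.0759 and 1.62 CPM and the WT points between 4.53 and 6.73 CPM, while for miR-511-3p the groups overlap.

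The 3p arm was rarer still, and was not detected in 2 of the 3 EKO libraries. EKO replicates 1 and 2 held 0 reads of miR-511-3p, and a count of 0 (taken as under 3 reads) allows up to 0.0866 and 0.0759 CPM there. EKO replicate 3 held 25 reads, or 0.674 CPM. The WT replicates 1, 2 and 3 held 17, 22 and 56 reads, or 0.442, 0.532 and 1.37 CPM. EKO replicate 3 was thus above WT replicates 1 and 2, and the groups overlapped.

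Its mean was 0.225 ± 0.389 CPM for EKO and 0.781 ± 0.511 CPM for WT (SD over 3 libraries each). The log2 fold change of miR-511-3p was -1.78 ± 2.18 (SE, adjusted p = 0.788, edgeR), smaller than its own error. No difference in the 3p arm was detected, and the spread between EKO libraries came from EKO replicate 3, with 25 reads against 0 and 0. The 2 arms together had 0.915 ± 0.779 CPM for EKO and 6.54 ± 1.37 CPM for WT, or 98 reads against 794 summed over the 3 libraries of each genotype. For the TMM-scaled sum the two-sided exact permutation p was 0.1, the smallest that 3 libraries against 3 allow.

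**Figure D2:**
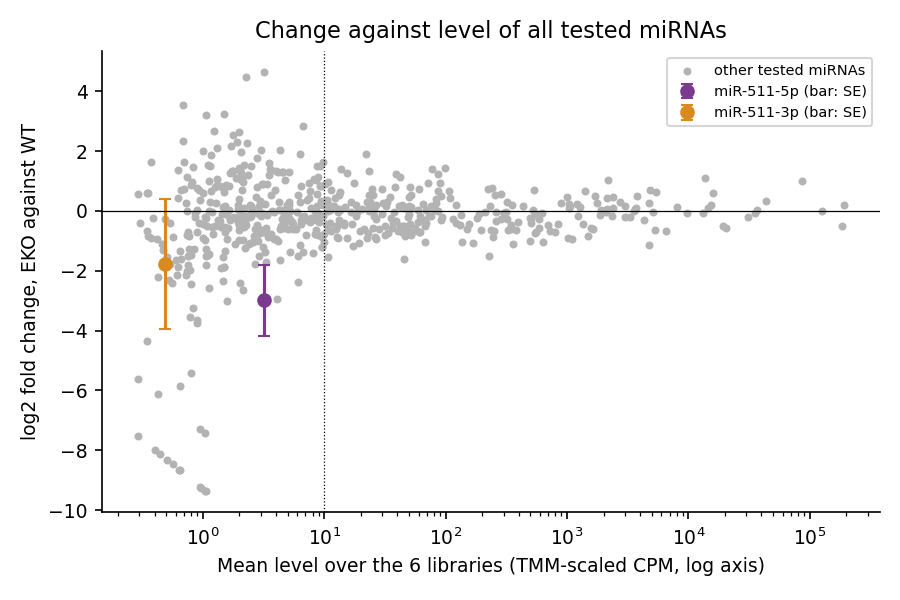
Fitted log2 fold change, EKO against WT (y axis), against the mean level over the 6 libraries in TMM-scaled CPM (x axis, log) for the 575 tested miRNAs. The dotted line marks 10 CPM, and bars on the 2 coloured points are SE. Both miR-511 arms lie left of that line, where the fold changes of other miRNAs spread widely, with miR-511-5p at -2.98 and miR-511-3p at -1.78.

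The level of the arms sets how much their fold changes can say. Of the 575 tested miRNAs, 325 averaged under 10 CPM, and their log2 fold changes had a median SE of 1.59, against 0.23 for the other 250. Values were lower in EKO for 199 of those 325 (61.2%, median log2 fold change -0.24), against 54.4% of the 250 more abundant ones (median -0.05). Counting miR-511-5p itself, 24 tested miRNAs had a log2 fold change as low as its own, and all 24 averaged under 10 CPM. Fewer mature miRNAs were also seen in the EKO libraries, 543, 577 and 591, than in the WT libraries, 684, 664 and 698. The part of this difference in the lower miR-511-5p count was not tested.

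The 3 miRNAs just above miR-511-5p in mean level and the 3 just below show how variable that range was. The closest above, miR-6899-3p, had 8.31, 4.35 and 0 CPM in the EKO libraries and 0.104, 4.57 and 2.37 CPM in the WT libraries, with overlapping groups. Next came miR-203-3p, with EKO values of 1.64, 0.101 and 8.82 CPM and WT values of 0.442, 1.67 and 7.06 CPM, and then miR-6965-3p, whose log2 fold change was -0.69 ± 0.82 (SE). The closest below, miR-101c, also had overlapping groups, with a log2 fold change of -0.71 ± 0.77, and that of miR-1933-3p was -1.19 ± 0.86. The last, miR-7677-3p, went the other way with groups that did not overlap, with EKO values of 7.59, 3.41 and 7.01 CPM and WT values of 0.728, 0 and 0 CPM. Among these 7 miRNAs miR-511-5p and miR-7677-3p had groups without overlap, in opposite directions, and none of the 7 passed the edgeR test. Groups without overlap and lower in EKO were seen for 105 of all 575 tested miRNAs (18.3%). Among those averaging under 10 CPM they were seen for 45 of 325 (13.8%). The share in the higher direction was not counted.

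The files also give the number of distinct read sequences behind each count, a readout of how varied the reads of a miRNA were. The reads of miR-511-5p came from 2, 1 and 1 distinct sequences in EKO replicates 1, 2 and 3 and from 9, 14 and 16 in WT replicates 1, 2 and 3. Those of miR-511-3p came from 3 sequences in EKO replicate 3 and from 2, 1 and 4 in the WT libraries. The 56 reads of miR-511-5p in EKO replicate 1 were thus 28 reads per distinct sequence, against 19.3, 19.9 and 15.4 in the WT libraries. Other miRNAs in EKO replicate 1 within a factor of 2 of those reads had a median of 4 distinct sequences, and 6 of these 99 had fewer than miR-511-5p. In the WT libraries the medians for miRNAs of like read number were 11.5, 16 and 17, each above the number for miR-511-5p. Over all mature miRNAs the distinct sequences numbered 48275 to 57650 in EKO and 62572 to 67508 in WT. How many captured molecules lie behind 1 or 2 distinct sequences was not tested, and the counting intervals above do not cover it.

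**Figure D3:**
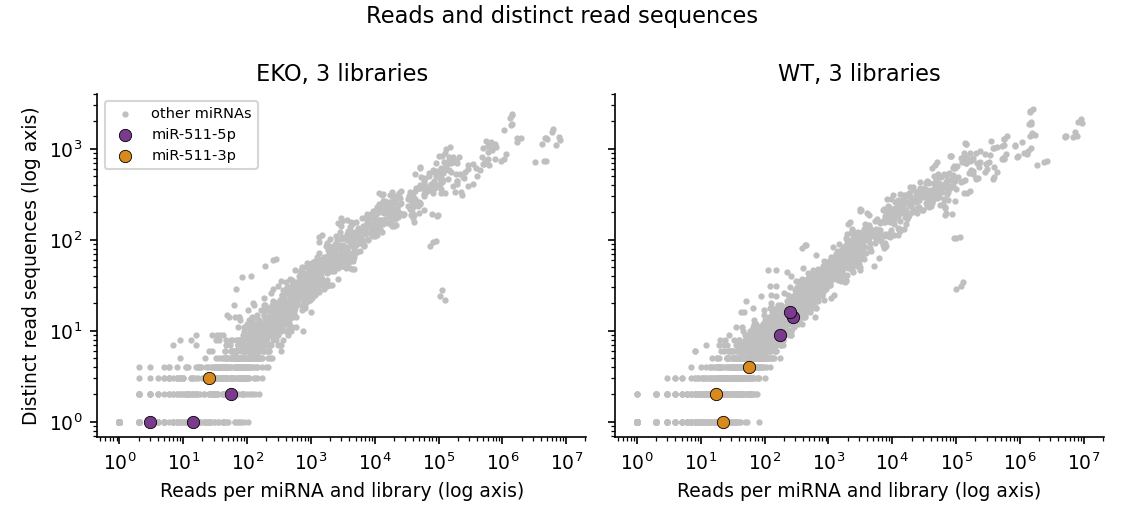
Distinct read sequences (y axis, log) against reads (x axis, log) for every miRNA in the 3 EKO libraries (left) and the 3 WT libraries (right). The miR-511-5p points lie at 1 or 2 sequences in EKO and at 9 to 16 in WT, and points with 0 reads are not drawn.

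The ratio of reads between the 2 arms of a hairpin needs no scaling between libraries, since both arms share a library. Ligation that favours some sequences could still shift such a ratio, and this was not tested. In WT cells the 5p arm took most of the miR-511 reads. Its share was 91.1%, 92.7% and 81.5% in WT replicates 1, 2 and 3, with exact 95% intervals from 86.1% to 94.7%, 89.1% to 95.3% and 76.7% to 85.7%. That is 10.2, 12.6 and 4.41 reads on the 5p arm for each on the 3p arm. In EKO replicate 1 all 56 reads were 5p reads (interval from 93.6%), at least 18.7-fold the 3 reads that a count of 0 allows. In EKO replicate 2 only 3 reads were seen on both arms together, too few for a ratio. In EKO replicate 3 the order turned, with 14 reads on the 5p arm and 25 on the 3p arm, a 5p share of 35.9% (interval 21.2% to 52.8%). The EKO libraries thus lay on either side of the WT libraries.

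As a log2 ratio of 5p to 3p reads, with 0.5 reads added to each arm, miR-511 had a mean of 2.94 ± 3.82 over the EKO libraries and 3.03 ± 0.791 over the WT libraries (SD, n = 3 each). The difference was -0.09 ± 2.44 (SE, adjusted p = 0.978, limma over 154 hairpins), and none of the 154 hairpins passed (0% called). With 5 reads added in place of 0.5 the difference for miR-511 was -1.61 ± 1.46, so its size is set by how the 0 counts are treated. A difference in arm use of several fold in either direction lies within this error.

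Among the 154 hairpins with a mean of at least 10 reads on each arm, 78 had the 5p arm ahead on average. The SD of the log2 ratio over the WT libraries was 0.791 for miR-511 and had a median of 0.738 over the hairpins, where miR-511 ranked 75. Over the EKO libraries it was 3.82 against a median of 1.11, and miR-511 ranked 36. Other intronic and myeloid hairpins with more reads had ratios with a narrower spread. For miR-342, which lies in an intron of Evl, the log2 ratio was 1.45, 0.97 and 0.68 in EKO and 0.41, 0.34 and -0.11 in WT. For miR-223, the myeloid miRNA, it was 3.56, 3.45 and 3.28 in EKO and 2.65, 2.52 and 1.91 in WT. The pan-haematopoietic miR-142a, with the 3p arm ahead, had -2.11, -1.86 and -1.93 in EKO and -1.70, -1.84 and -1.77 in WT. In WT cells the read ratio of the miR-511 arms thus had the direction of that of miR-223 and the opposite of that of miR-142a. The endothelial miR-126a had too few 5p reads for this comparison.

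**Figure D4:**
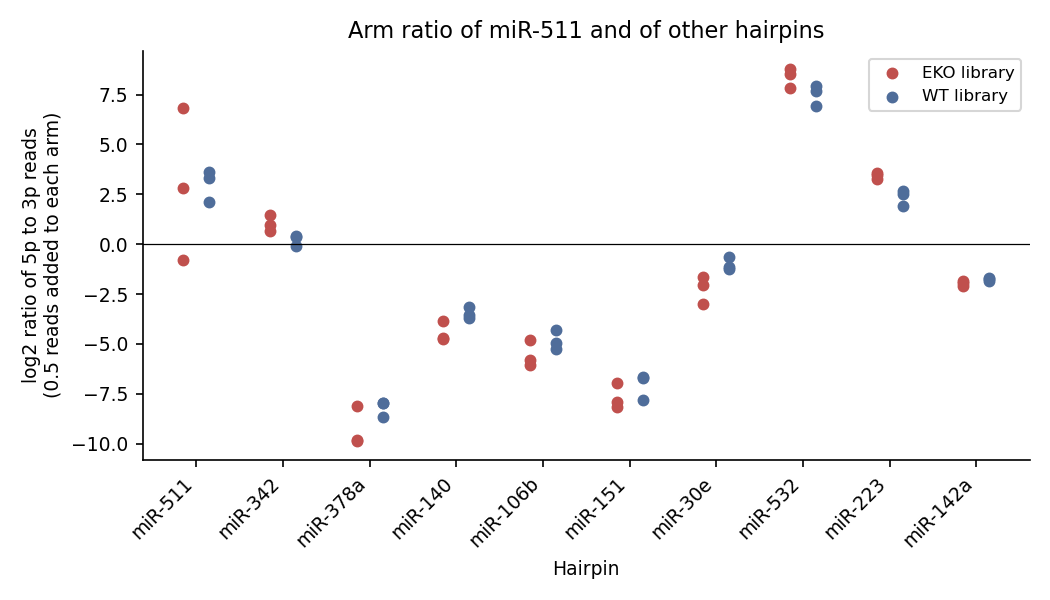
Log2 ratio of 5p to 3p reads, with 0.5 reads added to each arm (y axis), in each EKO (red) and WT (blue) library for miR-511 and 9 other hairpins (x axis). The EKO points of miR-511 spread from -0.81 to 6.82 around its WT points, which lie between 2.13 and 3.63.

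The miRNAs whose level followed that of miR-511-5p most closely over the 6 libraries were sought among the 250 averaging at least 10 CPM. The measure was Pearson's r of log2 (TMM-scaled CPM + 0.5), given as a description, since the libraries share 2 genotypes and a miRNA lower in EKO tends to score high. The joint entry miR-467d-3p/miR-467a-3p of the Sfmbt2 intronic cluster came first (r = 0.98). Its EKO values were 16.0, 13.0 and 13.7 CPM and its WT values 18.9, 19.5 and 20.3 CPM, so that its range was far narrower than that of miR-511-5p. Then followed miR-96-5p (r = 0.97), miR-143-3p, a miRNA of stromal and smooth muscle cells (r = 0.96), let-7e-5p (r = 0.95) and miR-22-5p (r = 0.93). All 5 had lower fitted values in EKO, with log2 fold changes from -1.04 to -0.42, and none passed the edgeR test. The correlation between the 2 arms of miR-511 itself was 0.55.

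The short match of bases 2 to 7 with miR-511-3p was found in 2 other miRNAs of the table, which held sequences for 762 of the 911 listed references, so the rest were not searched. One of them, miR-1187, had 41 reads in WT replicate 1 and none in the other libraries. The other, miR-1198-5p, was abundant, with EKO values of 7069, 6639 and 5836 CPM and WT values of 4799, 4187 and 3879 CPM, and with all EKO libraries above all WT libraries. Its log2 fold change was 0.63 ± 0.14 (SE, adjusted p = 0.0766, edgeR), on the opposite side from both miR-511 arms.

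Lists of miRNAs linked to macrophage activation and of other intronic miRNAs give the setting of miR-511. Of 15 tested miRNAs linked to alternative activation, 0 passed in either direction (0% of all tested miRNAs passed) and 11 had lower values in EKO, with a median log2 fold change of -0.28 against -0.16 for all tested miRNAs. Its most abundant members were miR-21a-5p (151420 ± 13398 CPM for EKO, 217886 ± 7115 CPM for WT), miR-10a-5p and let-7c-5p. The level of miR-10a-5p was instead higher in each EKO library (18698 ± 2642 CPM for EKO, 12688 ± 1588 CPM for WT), and that of let-7c-5p was 14954 ± 1084 and 14122 ± 896 CPM. The Toll-like receptor brake miR-146a-5p, in the same list, was at 2197 ± 493 and 2119 ± 189 CPM (SD, n = 3 each), and miR-124-3p was listed in no library. Of 13 tested miRNAs linked to classical activation, 0 passed and 10 had lower values (median -0.49), led in level by miR-27b-3p, miR-27a-3p and miR-342-5p. Of 49 tested miRNAs from introns of protein-coding genes, 0 passed and 33 had lower values (median -0.35). The most abundant of these were miR-27b-3p, miR-151-3p and miR-25-3p, whose log2 fold changes were -0.49, 1.11 and 0.14. Over all tested miRNAs 335 of 575 (58.3%) had lower values, and whether the lists differ from that share was not tested.

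The labelled cell type was checked on 8 macrophage and myeloid miRNAs. All 8 were present, and their summed level was 144091 to 172617 CPM in EKO and 217238 to 230110 CPM in WT, most of it miR-21a-5p. Of the 8, 6 had lower fitted values in EKO, against 335 of all 575 tested miRNAs (58.3%), and none of the 8 passed the edgeR test. The level of miR-223-5p was instead higher in each EKO library, at 2673 to 2880 CPM against 1959 to 2162 CPM in WT. The groups overlapped for miR-146a-5p, at 1694 to 2680 and 1962 to 2330 CPM. Without overlap between the groups, 5 lymphoid miRNAs summed to 537 to 649 CPM in EKO and 728 to 846 CPM in WT. Most of that level was miR-181a-5p, which is also in the alternative activation list, and miR-181b-5p. Of the 5 only miR-181b-5p had groups without overlap, at 256 to 316 and 365 to 462 CPM. The groups overlapped for miR-150-5p, at 2.60 to 5.42 and 4.60 to 5.96 CPM. The 2 endothelial arms, from a cell type that can also make the mannose receptor, summed to 64.6 to 73.1 CPM in EKO and 76.3 to 79.9 CPM in WT. The sums of 9 stromal miRNAs overlapped (3859 to 4077 and 4006 to 4140 CPM), but nearly all of that level was miR-140-3p, at 3539 to 3852 and 3487 to 3637 CPM. Of the 6 stromal entries tested, 4 were lower in each EKO library than in any WT library, against 105 of all 575 tested miRNAs (18.3%). The median log2 fold change of the 6 was -0.95. For miR-143-3p the levels were 73.8 to 115 CPM in EKO and 165 to 211 CPM in WT, and for miR-140-5p 138 to 243 and 275 to 404 CPM. Much rarer were the joint entry miR-199a-3p/miR-199b-3p, at 0.0577 to 3.77 and 7.70 to 14.2 CPM, and miR-199a-5p, at 0 to 1.56 and 3.32 to 4.19 CPM. These 4 stromal entries lay on the same side as miR-511-5p, and none of the 6 passed the edgeR test (smallest adjusted p = 0.0777). The other 2, miR-140-3p and miR-214-3p, went the other way, with log2 fold changes of 0.08 and 3.55 ± 2.61 (SE). The level of miR-214-3p was 0 to 2.51 CPM in EKO and 0 to 0.312 CPM in WT. The erythroid sums overlapped too (117 to 145 and 127 to 160 CPM) and were nearly all the joint entry miR-486a-5p/miR-486b-5p. The other detected erythroid marker, miR-451a, lay on the opposite side without overlap, at 5.92, 5.31 and 1.29 CPM in EKO replicates 1, 2 and 3 and 0, 0 and 0.587 CPM in the WT ones. Both arms of miR-144 were at 0 in every library. The part of these other cell types in the miR-511 counts was not tested.

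Because the groups did not overlap at miR-511-5p, leaving out a library could change the size of its difference but not its direction. Leaving out each library in turn gave log2 fold changes from -4.66, without EKO replicate 1, to -2.44, without EKO replicate 2 (adjusted p from 0.156 to 0.452, edgeR). Since EKO replicate 1 held 56 of the 73 EKO reads, it set the size of the difference more than any other library. For miR-511-3p, EKO replicate 3 held all 25 EKO reads. Without it no EKO library held a 3p read, and the 3p arm still did not pass (adjusted p = 0.168, edgeR). The adjusted p of miR-511-5p was 0.0520 with DESeq2 and 0.102 with limma-voom, so it missed the threshold under each of these tests.

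**Figure D5:**
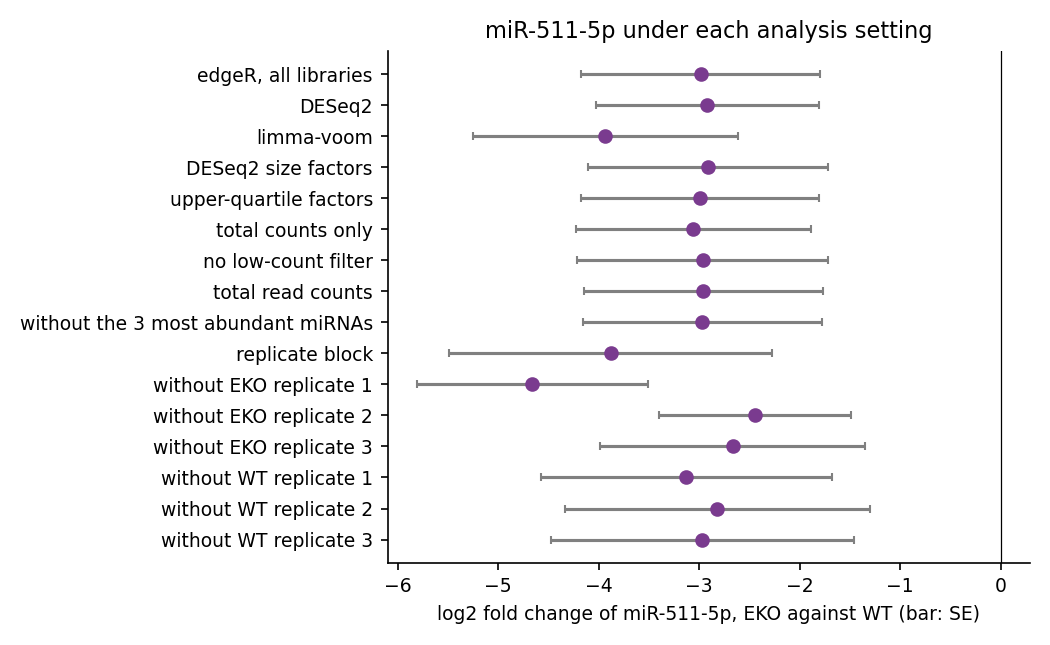
Fitted log2 fold change of miR-511-5p, EKO against WT (x axis, bars are SE), under each analysis setting (y axis). All points lie between -4.66 and -2.44, and the setting furthest from the value of -2.98 leaves out EKO replicate 1.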

How the data were processed

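The authors deposited 1 table per library of reads on mature miRNAs in sense orientation. Per the file headers, the deposited tables give the total read count, the number of distinct read sequences, an estimated count that splits a read between all the references it matches, and a molecular-barcode count, which was 0 throughout. The build was mm9 per the submitters' processing notes; an aligner or counting tool is not given in the sources used here. RNA came from spin columns and libraries from an NEB small RNA kit, per the labels' protocols, and ligation favours some sequences, so levels of different miRNAs are only roughly comparable. References missing from a table were set to 0, stem-loop references were left out, and the estimated counts were rounded. Levels are plain CPM unless called TMM-scaled. The genotypes were compared with edgeR 4.0.16 in R 4.3.3 (TMM, filterByExpr, glmQLFit and glmQLFTest, adjusted p threshold 0.05), fitted over all miRNAs. The SE is the log2 fold change divided by the square root of F. The arm ratio was fitted with limma 3.58.1 (eBayes, with a trend on the mean reads of the rarer arm). Both fits were also run on simulated counts with known changes. The same dispersion was used there for every miRNA, so that run says little about miRNAs as variable between libraries as the miR-511 arms. DESeq2 1.42.0 and the other alternatives are in the closing section.

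The miRNAs named are the 2 arms, the 3 neighbours in level on each side, the 5 most like in pattern, those sharing the seed of miR-511-3p, the 3 most abundant members of each list, and hairpins chosen for the arm comparison. The members and lists were chosen with earlier results of these data known. The match over 6 bases, miR-146a-5p, miR-124-3p and the myeloid, stromal, lymphoid and erythroid markers given singly were named after their values were seen.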

Additional observations from a re-analysis of the deposited data

How the results depend on the processing

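In all settings run, the log2 fold changes of miR-511-5p and miR-511-3p kept their lower direction in EKO and their side of the threshold. The sum of both arms also kept its lower direction. Its exact permutation p cannot fall below 0.1, or 0.2 with a library left out, so its side of the threshold was fixed in advance. The filters on at least 10 reads in every library and on a mean of at least 10 CPM removed both arms, so neither gives them a value, and the stricter arm filter removed miR-511. The count of miRNAs past the threshold, 0 with edgeR, was 92 with DESeq2, 32 with limma-voom, 52 with no low-count filter, 43 with at least 10 reads in every library, 59 with a mean of at least 10 CPM and 0 to 45 leaving out each library, with all 45 calls coming without EKO replicate 3. The count of hairpins past the threshold, 0, was 6 with at least 10 reads on each arm in every library and 0 to 15 leaving out each library. The cause of these shifts was not tested.

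Left-out libraries gave log2 fold changes of miR-511-3p from -7.90 to -1.13, where -7.90, without EKO replicate 3, sets WT against EKO libraries at 0 and depends on the prior count. The sum of both arms differed by -6.43 to -5.07 CPM. The arm ratio difference ran from -2.03 to 1.79, turning sign when EKO replicate 3 or either of WT replicates 1 and 2 was left out.

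The replicate numbers were not taken as pairs: deviations of same-numbered libraries correlated at 0.14, -0.08 and 0.28, and only EKO replicate 3 correlated best with its own number. With a replicate block the log2 fold changes were -3.88 for miR-511-5p (adjusted p = 0.181, edgeR) and -4.73 for miR-511-3p, the arm ratio difference was -0.09, and 62 miRNAs and 10 hairpins passed.

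Between 3 and 278 reads lay behind each detected value, and EKO replicates 1 and 2 held none of the 3p arm.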
